A study of Arabidopsis thaliana with 6 samples.

Results

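The genes described here are 43 loci of phenylpropanoid, lignin and dirigent biology, listed by locus ID for their place in the pathway, with earlier results of these data known. They comprise 17 enzymes from phenylalanine ammonia-lyase to cinnamyl alcohol dehydrogenase, 3 lignin laccases and 23 dirigent-like genes. Of these, 40 were among the 26984 genes measured, while CCR1, CCR2 and the dirigent-like gene AT4G11180 were not analysed here. Expression was measured by RNA-seq as FPKM (fragments per kilobase of gene, scaled to library size) in Arabidopsis thaliana seedlings, in 3 libraries of the hy5-215 mutant and 3 of wild type (Col_0). The mutant libraries are called hy5 4, 5 and 6 and the wild-type libraries WT 1, 2 and 3. All seedlings were 7 days old, were grown in short days and were harvested at zeitgeber time 20 h, and the labels name no treatment for either genotype. Nothing in the labels ties the libraries to separate plantings or pools of plants. The p-values below therefore reflect library-to-library spread alone, part of which may be technical.

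Phenylpropanoid metabolism turns phenylalanine into cinnamate, p-coumarate and p-coumaroyl-CoA, from which flavonoids, sinapate esters, coumarins and the monolignols of lignin branch off. Monolignols are oxidised by laccases and peroxidases and couple as radicals in the wall of xylem vessels and in the Casparian strip, the lignin barrier of the root endodermis. Dirigent proteins steer such radical coupling, and ESB1, a member of the family, is needed for an intact Casparian strip. HY5, a bZIP transcription factor, drives light-dependent seedling development and is known to bind DNA with an ACGT core.

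HY5 (AT5G11260) itself had 3.04, 1.88 and 3.02 FPKM in hy5 4, 5 and 6, against 13.4, 13.0 and 13.9 FPKM in WT 1, 2 and 3, and the genotypes did not overlap (log2 fold change -2.00, SE 0.14, limma adjusted p = 5.4e-07). FPKM sums per library were 542426 to 549245 in hy5 and 528554 to 556418 in WT, and the spacing of the lowest values put relative depth at 0.938 to 1.03 times that of WT 1. Absolute depth is unknown. The labels give the tissue as seedling, and root and shoot markers were both present: 8 of 8 root markers and 8 of 8 shoot markers were above the expression filter. Seed maturation transcripts summed to 1.64 to 10.04 FPKM in hy5 and 40.6 to 262 FPKM in WT, with WT 2 the highest. Of 7 such markers 5 were lower in hy5 (11.1% of all genes tested were lower), among them PAP85, SESA1 and SESA3. These 3 genes reached 1 FPKM in WT alone and entered the test through those libraries, which favours a call of lower. The same holds for SESA5, also among the 5 and named after its values were seen. Among the alternative settings in which each gene was tested, the SESA1 call held in 8 of 11 (adjusted p up to 0.083). Its losses included omission of hy5 4 or hy5 6. The SESA3 call held in 7 of 11 (adjusted p up to 0.12), with losses that included omission of any single hy5 library. The PAP85 call held in 9 of 10 (adjusted p up to 0.052). None of the 7 was listed at 0 in all libraries of a genotype. The part of this difference in the results was not tested.

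Of the 40 genes, 35 reached 1 FPKM in at least 3 libraries and were tested, and 18 of the 35 passed a limma adjusted p of 0.05, against 22.8% of all 17205 genes tested. In hy5, 16 were higher (11.7% of all genes tested) and 2 were lower (11.1% of all genes tested). In bulk seedlings, fewer cells of a type and less RNA per cell cannot be told apart. The median log2 fold change of FPKM + 1, hy5 over WT, was 0.28 over the 35 genes and -0.00094 over all genes tested. Among the 18 tested enzymes and laccases 9 were higher and 1 was lower, with mean FPKM in hy5 0.745 to 1.42 times that in WT among those called. Among the 17 tested dirigent genes 7 were higher and 1 was lower, and 5 of those 7 belong to the group of ESB1 relatives. A log2 fold change of at least 1 was reached by AT4G11190, ESB1, AT3G24020, AT4G13580 and AT3G55230, all of them dirigent genes and all higher in hy5 (1.21% of all genes tested). Without hy5 4 the number of enzymes and laccases that were higher was 5, while at least 7 dirigent genes were higher whichever single library was left out.

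**Figure D1:**
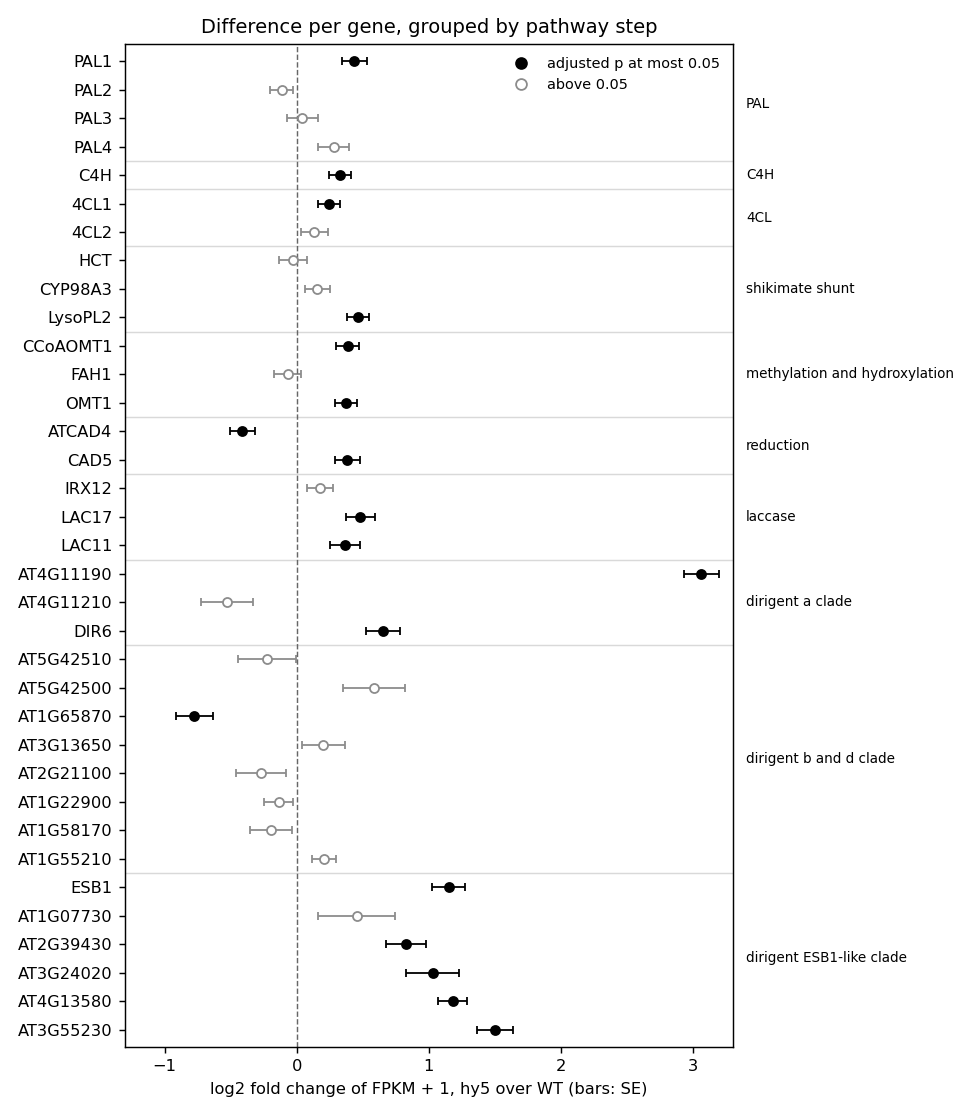
The log2 fold change of FPKM + 1, hy5 over WT, of the 35 tested genes (x axis, bars are SE) by pathway step; filled points passed a limma adjusted p of 0.05. Points of the lignin enzymes lie between -0.41 and 0.48, whereas AT4G11190 lies at 3.06 and AT3G55230 at 1.50.

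Phenylalanine ammonia-lyase (PAL) catalyses the entry step, and of its 4 genes only PAL1 passed the test. PAL1 had 59.9, 60.5 and 54.5 FPKM in hy5 4, 5 and 6, against 47.0, 39.6 and 42.0 FPKM in WT 1, 2 and 3 (log2 fold change 0.44, SE 0.092, limma adjusted p = 0.0044). Every hy5 library lay above every WT library. PAL2, which is 82.6% identical to PAL1 in its coding sequence, had 53.5, 53.4 and 47.9 FPKM in hy5 and 59.1, 52.7 and 55.9 FPKM in WT, so its genotypes overlapped (limma adjusted p = 0.38). PAL1 is therefore the more abundant of this pair in hy5 and the less abundant in WT. The ratio of PAL1 to PAL2 FPKM was 1.12 to 1.14 in hy5 and 0.751 to 0.795 in WT, and PAL1 made up 44.1% ± 0.033 of the summed PAL FPKM in hy5 and 36.4% ± 1.5 in WT (SD, n = 3 each). PAL3 averaged 5.89 ± 0.43 FPKM in hy5 and 5.69 ± 0.061 FPKM in WT, and PAL4 averaged 16.3 ± 0.68 FPKM in hy5 and 13.3 ± 2.3 FPKM in WT (SD, n = 3 each). PAL4 passed only when WT 3 was left out (limma adjusted p = 0.010).

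C4H, the cytochrome P450 that hydroxylates cinnamate, had 124, 121 and 118 FPKM in hy5 4, 5 and 6 and 99.5, 91.0 and 97.9 FPKM in WT 1, 2 and 3, with no overlap. The difference passed (log2 fold change 0.33, SE 0.082, limma adjusted p = 0.011), but the call was lost without hy5 4 (adjusted p = 0.071). The 4CL enzymes activate p-coumarate with coenzyme A. 4CL1 had 50.7, 50.1 and 47.3 FPKM in hy5 and 43.1, 40.9 and 40.7 FPKM in WT (log2 fold change 0.24, SE 0.083, limma adjusted p = 0.049). All hy5 values were the higher ones, yet the call was lost in 11 of 14 alternative settings, among them the omission of any single library (adjusted p 0.052 to 0.20). 4CL2 averaged 11.1 ± 0.18 FPKM in hy5 and 10.06 ± 0.60 FPKM in WT (SD, n = 3 each) and did not pass (limma adjusted p = 0.39).

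The next enzymes hydroxylate the ring through shikimate esters. HCT, the transferase that makes these esters, was the most abundant gene of the pathway described here, with 154, 162 and 157 FPKM in hy5 4, 5 and 6 and 148, 145 and 194 FPKM in WT 1, 2 and 3. WT 3 was the highest library and the genotypes overlapped (log2 fold change -0.03, SE 0.11, limma adjusted p = 0.88). The sign turned without WT 3 (0.10, adjusted p = 0.31). CYP98A3, the p-coumaroyl shikimate 3'-hydroxylase, averaged 47.2 ± 1.1 FPKM in hy5 and 42.5 ± 4.6 FPKM in WT (SD, n = 3 each) and did not pass. Caffeoyl shikimate esterase, annotated as LysoPL2, frees caffeate from its shikimate ester. It had 41.9, 40.6 and 39.7 FPKM in hy5 and 30.5, 27.7 and 29.7 FPKM in WT, without overlap (log2 fold change 0.46, SE 0.086, limma adjusted p = 0.0019). It was the enzyme of this set with the smallest p.

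Methyl groups are added by CCoAOMT1 and by the caffeate O-methyltransferase OMT1, and both were higher in hy5. CCoAOMT1 had 94.7, 100.1 and 91.0 FPKM in hy5 4, 5 and 6, against 77.4, 67.3 and 73.4 FPKM in WT 1, 2 and 3 (log2 fold change 0.39, SE 0.087, limma adjusted p = 0.0066). OMT1 had 118, 109 and 123 FPKM in hy5, against 92.9, 89.4 and 86.4 FPKM in WT (log2 fold change 0.37, SE 0.085, limma adjusted p = 0.0068). Neither gene's genotypes overlapped, and the OMT1 call was at an adjusted p of 0.0503 without hy5 6. FAH1, the ferulate 5-hydroxylase that commits precursors to syringyl lignin and sinapate, averaged 17.6 ± 2.0 FPKM in hy5 and 18.4 ± 0.13 FPKM in WT (SD, n = 3 each) and did not pass (limma adjusted p = 0.67).

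The last reduction, from cinnamyl aldehydes to alcohols, is shared by ATCAD4 and CAD5, and these genes moved in opposite directions. ATCAD4 had 38.5, 35.7 and 38.0 FPKM in hy5 4, 5 and 6 and 55.6, 47.3 and 47.8 FPKM in WT 1, 2 and 3 (log2 fold change -0.41, SE 0.091, limma adjusted p = 0.0060), lower in every hy5 library. CAD5 had 24.7, 23.8 and 24.4 FPKM in hy5 and 20.1, 18.0 and 17.3 FPKM in WT (log2 fold change 0.38, SE 0.094, limma adjusted p = 0.011). Neither gene's genotypes overlapped. The ATCAD4 call held in all 14 alternative settings, and the CAD5 call was lost without hy5 4 (adjusted p = 0.056) or hy5 6 (adjusted p = 0.051). The ratio of ATCAD4 to CAD5 FPKM was 1.54 ± 0.035 in hy5 and 2.72 ± 0.080 in WT (SD, n = 3 each). Summed FPKM of the pair was 59.6 to 63.2 in hy5 and 65.1 to 75.7 in WT. Their coding sequences are 74.3% identical, and no other sequence in the nuclear genome matched any of the 43 coding sequences at 95% identity over 100 bases.

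**Figure D2:**
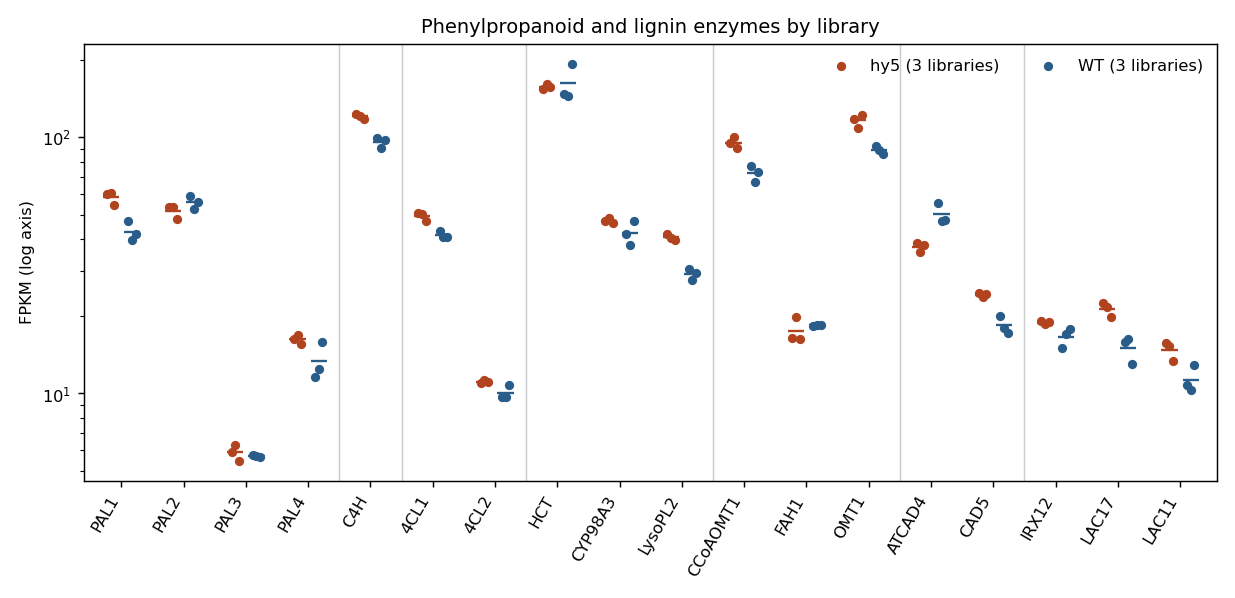
FPKM (log axis) of 18 enzymes and laccases in each of 3 hy5 and 3 WT libraries, with short lines at the genotype means and vertical lines between pathway steps. ATCAD4 is the only one of the 18 whose hy5 points all lie below its WT points.

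Laccases oxidise monolignols in the wall. LAC17 had 22.6, 21.7 and 19.8 FPKM in hy5 4, 5 and 6, against 16.0, 16.3 and 13.0 FPKM in WT 1, 2 and 3 (log2 fold change 0.48, SE 0.11, limma adjusted p = 0.0066). LAC11 had 15.7, 15.4 and 13.4 FPKM in hy5, against 10.7, 10.3 and 12.9 FPKM in WT (log2 fold change 0.37, SE 0.11, limma adjusted p = 0.033). IRX12, also known as LAC4, had 19.2, 18.6 and 18.9 FPKM in hy5, against 15.1, 17.1 and 17.9 FPKM in WT, and did not pass (limma adjusted p = 0.22). In all 3 genes the lowest hy5 library exceeded the highest WT library, as it did for 20.6% of all genes tested. The LAC11 call was lost in 7 of 14 settings (adjusted p up to 0.15), including omission of WT 1 (0.094), WT 2 (0.11), hy5 4 (0.15) or hy5 5 (0.094). LAC17 overlaps an antisense noncoding RNA over 24.2% of its exon bases, and whether strand was used in counting is not given in the sources used here.

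The 23 dirigent genes were grouped by known relationship into 5 of the a clade, which contains the lignan-forming DIR5 and DIR6, 12 of the b and d clades, and 6 relatives of ESB1. In coding sequence, pairs within the ESB1-like group were 36.2% to 82.7% identical (median 45.9%, 15 pairs), and pairs of an ESB1-like gene with another dirigent gene had a median of 38.0% (102 pairs). Over all 253 dirigent pairs the median was 47.6%, above that within the ESB1-like group. Identity was taken over all alignment columns, gaps included, so pairs of unequal length score lower. Coding sequences were 732 to 1311 bases long in the ESB1-like group and 378 to 582 bases in the other dirigent genes. Summed FPKM of the 22 measured dirigent genes was 416.7, 374.5 and 394.3 in hy5 4, 5 and 6 and 219, 177 and 258 in WT 1, 2 and 3. The 6 ESB1-like genes accounted for 195 ± 18 FPKM of this in hy5 and 83.8 ± 17 FPKM in WT (SD, n = 3 each).

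AT4G11190 changed most of all the genes described here. It had 59.7, 50.9 and 47.9 FPKM in hy5 4, 5 and 6, against 5.09, 4.50 and 6.87 FPKM in WT 1, 2 and 3, a 9.63-fold difference in mean FPKM (log2 fold change of FPKM + 1 3.06, SE 0.13, limma adjusted p = 2.1e-09). Its neighbour AT4G11210, with an 86.8% identical coding sequence, had 7.27, 7.88 and 7.45 FPKM in hy5 and 12.7, 7.48 and 15.1 FPKM in WT. The values of AT4G11210 overlapped between genotypes (log2 fold change -0.53, SE 0.20, limma adjusted p = 0.077). The gene passed as lower without WT 2 (-0.80, adjusted p = 0.00069). The ratio of AT4G11190 to AT4G11210 FPKM was 6.43 to 8.22 in hy5 and 0.40 to 0.602 in WT. Both lie on the plus strand of chromosome 4 in the RefSeq TAIR10.1 annotation, AT4G11190 at 6826587 to 6827389 and AT4G11210 at 6832650 to 6833498, each with 1 exon, in a tandem array with AT4G11180. The 300 bases before the annotated start of each are shown to compare these neighbours, with every ACGT core in capitals:
AT4G11190, chr4:6826287-6826586, plus strand: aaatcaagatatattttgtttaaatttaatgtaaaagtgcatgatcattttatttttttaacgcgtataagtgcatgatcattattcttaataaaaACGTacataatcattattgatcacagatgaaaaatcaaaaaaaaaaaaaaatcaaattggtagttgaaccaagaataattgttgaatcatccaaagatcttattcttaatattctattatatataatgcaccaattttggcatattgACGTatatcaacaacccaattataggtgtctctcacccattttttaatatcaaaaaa
AT4G11210, chr4:6832350-6832649, plus strand: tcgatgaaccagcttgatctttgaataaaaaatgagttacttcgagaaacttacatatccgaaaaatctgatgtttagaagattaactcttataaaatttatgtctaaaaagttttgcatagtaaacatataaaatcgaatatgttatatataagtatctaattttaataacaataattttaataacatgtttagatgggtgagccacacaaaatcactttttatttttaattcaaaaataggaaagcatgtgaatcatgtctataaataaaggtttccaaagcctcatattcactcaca
These windows align at 51.3% identity, within the range of 40.6% to 52.0% over all 231 pairs of dirigent genes in the tables. The AT4G11190 window holds 2 ACGT cores, 204 and 57 bases before the start, and the AT4G11210 window holds none.

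DIR6, which directs lignan formation from coniferyl alcohol, had 41.5, 45.1 and 41.8 FPKM in hy5 4, 5 and 6 and 27.8, 21.2 and 32.8 FPKM in WT 1, 2 and 3 (log2 fold change 0.65, SE 0.13, limma adjusted p = 0.0035). Every hy5 value lay above every WT value. DIR5 was below the filter, at 0.0565, 0.791 and 0.167 FPKM in hy5, and was listed at 0 in the 3 WT libraries.

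**Figure D3:**
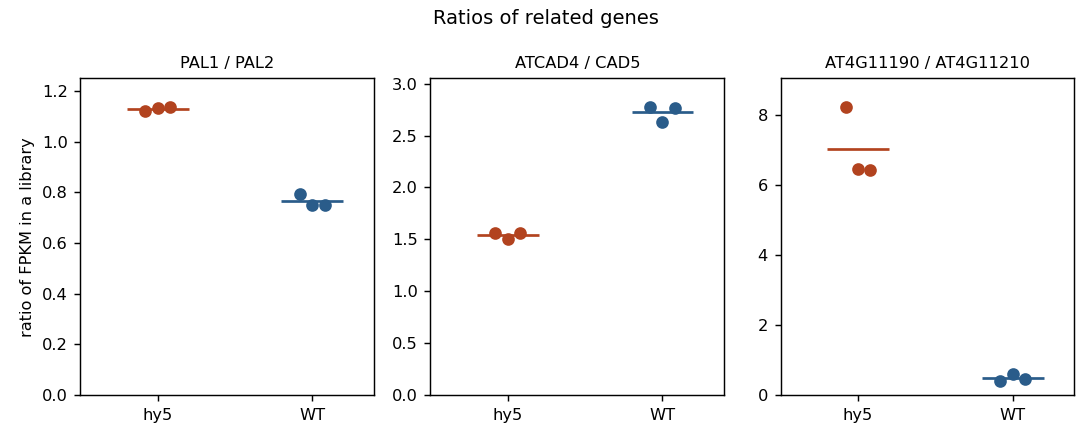
Ratios of FPKM between related genes in each library (linear axes from 0), with hy5 left and WT right and lines at the means. No ratio overlaps between genotypes, with means of 1.54 in hy5 and 2.72 in WT for ATCAD4 over CAD5.

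Of 8 tested members of the b and d clades none was higher and 1 was lower, near the 11.7% higher and 11.1% lower over all genes tested. AT1G65870 had 3.35, 4.51 and 4.16 FPKM in hy5 4, 5 and 6, against 7.74, 8.53 and 6.46 FPKM in WT 1, 2 and 3, without overlap (log2 fold change -0.78, SE 0.14, limma adjusted p = 0.0015). AT1G55210, the most abundant of these clades, had 52.2, 55.5 and 53.6 FPKM in hy5, against 44.3, 43.1 and 52.7 FPKM in WT (log2 fold change 0.21, SE 0.094, limma adjusted p = 0.13). WT 3 lay above hy5 4, so the genotypes overlapped, and without WT 3 AT1G55210 passed (adjusted p = 0.018). AT1G22900 had hy5 values of 5.98 to 6.28 FPKM, all below its WT values of 6.45 to 7.07 FPKM, yet did not pass (limma adjusted p = 0.41). All hy5 values lay below all WT values in 19.5% of all genes tested. The tandem pair AT5G42500 and AT5G42510, 91.8% identical in coding sequence, averaged 13.2 ± 0.89 and 4.29 ± 1.3 FPKM in hy5 and 8.91 ± 3.7 and 5.19 ± 1.7 FPKM in WT (SD, n = 3 each). How reads shared by such close copies were divided is not given in the sources used here, so the split within this pair is uncertain, as it is for AT4G11190 and AT4G11210. AT5G42500 passed as higher only without WT 3 (adjusted p = 0.0038). AT3G13650, AT2G21100 and AT1G58170 did not pass, with limma adjusted p of 0.41, 0.32 and 0.41. AT3G13660 and AT3G13662, tandem neighbours of AT3G13650, and AT2G21110, were listed at 0 in all 6 libraries. AT5G49040, which shares 92.4% of its exon bases with another gene on the same strand, averaged 2.4e-12 FPKM in hy5, from hy5 5 alone, and was listed at 0 in WT.

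**Figure D4:**
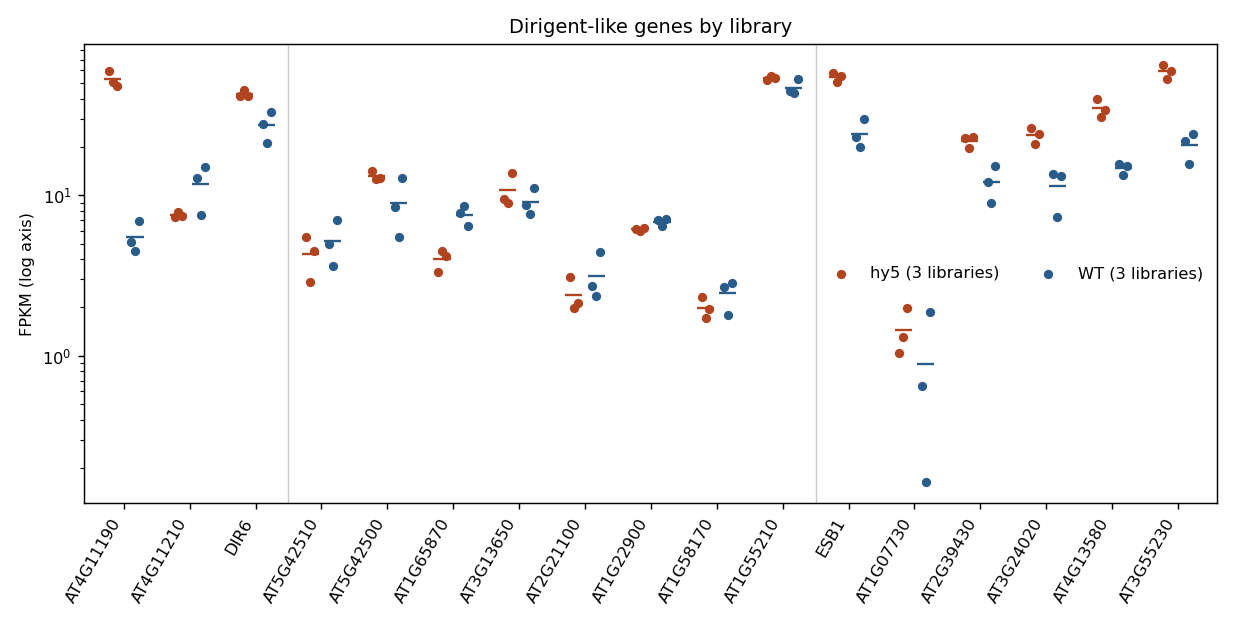
FPKM (log axis) of the 17 tested dirigent-like genes in each of 3 hy5 and 3 WT libraries, with lines at the genotype means; vertical lines separate the a clade, the b and d clades and the ESB1-like group. AT4G11190, DIR6 and 5 of 6 ESB1-like genes have all hy5 points above all WT points, as had 20.6% of all genes tested.

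Of the 6 ESB1-like genes 5 were higher in hy5, where 11.7% of all genes tested were higher. ESB1 had 57.6, 50.4 and 55.1 FPKM in hy5 4, 5 and 6, against 23.1, 19.9 and 29.7 FPKM in WT 1, 2 and 3 (log2 fold change 1.15, SE 0.12, limma adjusted p = 3.5e-05). AT3G55230, the most abundant in hy5, had 64.8, 52.8 and 59.6 FPKM in hy5, against 21.8, 15.7 and 24.0 FPKM in WT (log2 fold change 1.50, SE 0.14, limma adjusted p = 1.9e-05). For both genes the lowest hy5 library stood far above the highest WT library. AT4G13580 had 39.7, 30.7 and 34.1 FPKM in hy5, against 15.7, 13.4 and 15.2 FPKM in WT (log2 fold change 1.18, SE 0.11, limma adjusted p = 7.1e-06). The closest relative of AT4G13580 is AT3G24020 (82.7% identical in coding sequence). AT3G24020 had 26.1, 20.9 and 24.0 FPKM in hy5, against 13.6, 7.35 and 13.2 FPKM in WT (log2 fold change 1.03, SE 0.20, limma adjusted p = 0.0057). AT2G39430 had 22.6, 19.7 and 23.1 FPKM in hy5, against 12.1, 8.94 and 15.2 FPKM in WT (log2 fold change 0.83, SE 0.15, limma adjusted p = 0.0026). In these 5 genes all hy5 values lay above all WT values, as they did in 20.6% of all genes tested. The calls of the 5 genes held in all 14 alternative settings. WT 2 was the lowest WT library in all 5.

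AT1G07730, the remaining ESB1 relative, stayed low at 1.05, 1.31 and 1.99 FPKM in hy5 and 0.653, 0.163 and 1.86 FPKM in WT (limma adjusted p = 0.30). It passed the expression filter through the 3 hy5 libraries and WT 3, and it shares 99.4% of its exon bases with AT1G07740 on the same strand, so its reads are uncertain. Without WT 3 it passed as higher (adjusted p = 0.021). Antisense genes cover 84.3% of the exon bases of ESB1, 86.8% of AT3G24020, 24.6% of AT4G13580 for 1 partner and 11.8% for the other, and up to 8.02% of AT2G39430. The antisense partner of ESB1, AT2G28671, had 0.466 to 0.656 FPKM in hy5 and 0.278 to 0.479 FPKM in WT, far below ESB1. AT4G13590, which overlaps AT4G13580, had 22.0 to 25.7 FPKM in hy5 and 21.4 to 27.8 FPKM in WT and did not pass (limma adjusted p = 0.68). The noncoding partners were not analysed here. AT3G55230 has no overlapping gene in the annotation.

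Endodermis and Casparian strip genes were set beside this group. Of 10 tested, 8 were higher and none was lower in hy5, against 11.7% higher and 11.1% lower over all genes tested. Their median log2 fold change was 0.92, and none was listed at 0. The lignin peroxidase PER64, which acts with ESB1 in the strip, had 26.3, 22.5 and 23.3 FPKM in hy5 4, 5 and 6, against 10.6, 7.28 and 10.8 FPKM in WT 1, 2 and 3 (log2 fold change 1.26, SE 0.13, limma adjusted p = 2.5e-05). AT1G61590, a protein kinase gene of the endodermis, had 21.0, 16.9 and 21.3 FPKM in hy5, against 7.25, 7.18 and 8.81 FPKM in WT (limma adjusted p = 1.1e-05). Both genes, like ESB1, had all hy5 values above all WT values, as had 20.6% of all genes tested. The markers that did not pass were SCR, a transcription factor that specifies endodermis, at 17.2 ± 0.66 FPKM in hy5 and 19.2 ± 2.2 FPKM in WT, and the receptor kinase GSO1, at 8.50 ± 0.94 FPKM in hy5 and 7.65 ± 0.95 FPKM in WT (SD, n = 3 each). Summed FPKM of the list was 173 to 205 in hy5 and 89.5 to 126 in WT.

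**Figure D5:**
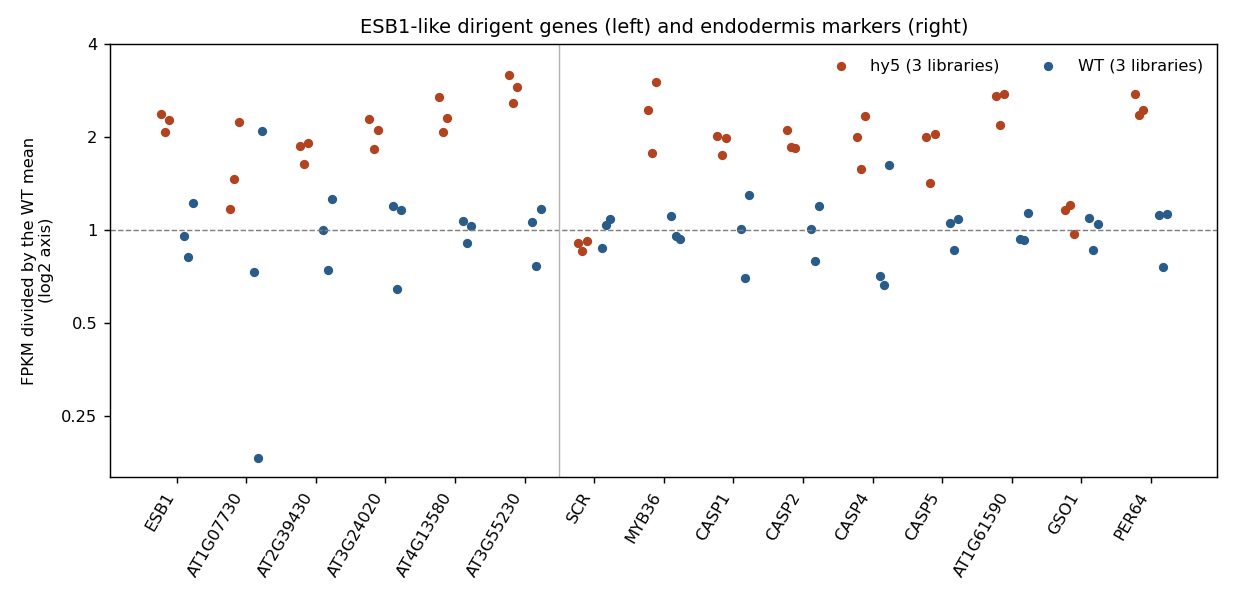
FPKM divided by the WT mean of the same gene (log2 axis) for 6 ESB1-like dirigent genes and 9 endodermis markers, in each of 3 hy5 and 3 WT libraries. In hy5, mean FPKM of ESB1 was 2.25 times and of AT3G55230 2.89 times the WT mean, whereas SCR and GSO1 have overlapping genotypes.

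Of 8 general root markers, PYK10 and SHR were higher in hy5, where 11.7% of all genes tested were higher, and 6 did not pass. Their median log2 fold change was 0.019. Their summed FPKM was 2810 to 2960 in hy5 and 2288 to 2654 in WT, without overlap, and none was listed at 0. Most of this sum came from PYK10, so it does not describe the markers as a set. PYK10, an abundant beta-glucosidase of the root, had 1927 to 2050 FPKM in hy5 and 1392 to 1606 FPKM in WT (limma adjusted p = 0.0042). DR4, the next most abundant, leaned the other way without passing, at 718 ± 26 FPKM in hy5 and 862 ± 96 FPKM in WT (SD, n = 3 each). The SHR call was lost in 7 of 14 settings (adjusted p up to 0.15), including omission of WT 1, WT 2 or any hy5 library. Of 6 tested xylem markers 3 were higher in hy5 and 3 did not pass. Summed FPKM of the xylem list was 99.1 to 113 in hy5 and 73.6 to 78.2 in WT. Most of that sum came from XCP2 and XCP1, so it does not describe the xylem markers as a set. The vessel proteases XCP1 (21.6 ± 1.3 FPKM in hy5 and 13.9 ± 1.4 FPKM in WT) and XCP2 (61.9 ± 5.6 FPKM in hy5 and 39.6 ± 0.80 FPKM in WT, SD, n = 3 each) were higher, as was VND7. The secondary wall cellulose synthases IRX1, CESA4 and IRX3 did not pass, with log2 fold changes of 0.17, 0.07 and -0.15. Of 8 shoot markers, the light-harvesting genes LHB1B1 (log2 fold change 1.01) and LHCA4 (0.38) were higher, and 6 did not pass. RBCS1A (-0.26) and RBCS3B (-0.30), named after their values were seen, leaned lower, and the other light-harvesting genes leaned higher. The median log2 fold change was 0.21. All hy5 values lay above all WT values in 5 of the 8, and in 20.6% of all genes tested. Summed FPKM was 32979 to 37743 in hy5 and 32276 to 38169 in WT. Most of it came from RBCS1A and CAB1, so it does not describe the shoot markers as a set. The part of tissue proportions in the lignin and dirigent values was not tested.

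WT libraries differed among themselves more than hy5 libraries did in these genes. Summed FPKM of all genes also varied more in WT (SD 14190.5) than in hy5 (SD 3440.16, n = 3 each). Whether the larger WT spread is particular to the genes described here was not tested. The median coefficient of variation was 4.06% in hy5 and 7.44% in WT over 18 enzymes and laccases, and 11.0% in hy5 and 22.5% in WT over 17 dirigent genes. WT 2 was the lowest WT library for 25 of the 35 tested genes, compared with 24.1% of all genes tested, and WT 3 was the highest for 20 of the 35, compared with 27.3%. Of the WT libraries, WT 2 also had the lowest summed FPKM of root and endodermis markers and the highest of seed maturation markers. Without WT 2 the numbers were 14 higher and 3 lower, the third lower gene being AT4G11210. Without WT 3, 19 were higher and 2 were lower.

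Other genes of the pathway were read from lists of family members, branch enzymes and regulators. Over all genes tested 11.7% were higher and 11.1% lower in hy5. Of 5 tested relatives of 4CL, CAD, F5H and CCoAOMT, 1 was higher and 1 lower. 4CL3, the ligase of the flavonoid branch, had 0.459, 0.515 and 0.537 FPKM in hy5 4, 5 and 6, against 2.53, 2.10 and 1.37 FPKM in WT 1, 2 and 3 (log2 fold change -0.98, SE 0.16, limma adjusted p = 0.00094). 4CL3 was thus lower in each hy5 library, while 4CL1 was higher in each. However, 4CL3 reached 1 FPKM in WT alone and entered the test through those libraries, which favours a call of lower. ELI3-1, a CAD relative, averaged 53.6 ± 1.7 FPKM in hy5 and 39.9 ± 3.5 FPKM in WT (SD, n = 3 each, limma adjusted p = 0.0048). Of 9 further laccases tested, LAC2 (5.95 ± 0.53 FPKM in hy5 and 2.97 ± 0.34 FPKM in WT) and LAC3 (17.2 ± 1.0 FPKM in hy5 and 10.7 ± 3.0 FPKM in WT) were higher. LAC5 was lower (1.52 ± 0.14 FPKM in hy5 and 2.46 ± 0.42 FPKM in WT, SD, n = 3 each), a call lost without WT 1, WT 3 or any hy5 library (adjusted p 0.073 to 0.13).

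Of 12 tested genes of sinapate, monolignol glucoside, lignan and coumarin synthesis, 5 were higher and 1 lower (11.7% and 11.1% of all genes tested). AT3G13610, annotated as F6'H1, which opens the branch to coumarins, had 7.22, 9.35 and 7.53 FPKM in hy5 4, 5 and 6, against 3.12, 2.07 and 3.27 FPKM in WT 1, 2 and 3 (log2 fold change 1.25, SE 0.15, limma adjusted p = 9.8e-05). ALDH2C4, the aldehyde dehydrogenase that makes ferulate and sinapate, had 55.3, 45.2 and 57.2 FPKM in hy5, against 33.8, 30.8 and 27.9 FPKM in WT (log2 fold change 0.75, SE 0.11, limma adjusted p = 0.00030). UGT84A2, which glucosylates sinapate, had 9.53, 9.69 and 8.94 FPKM in hy5, against 17.9, 17.3 and 14.7 FPKM in WT (log2 fold change -0.76, SE 0.11, limma adjusted p = 0.00029). These neighbouring steps of sinapate metabolism thus moved in opposite directions, and none of the 3 genes overlapped between genotypes. The other higher genes, named after their values were seen, were the pinoresinol reductases PRR1 and PRR2 and the glucosyltransferase UGT72E1. PRR1 averaged 24.4 ± 1.8 FPKM in hy5 and 17.5 ± 0.81 FPKM in WT, and PRR2 averaged 16.0 ± 1.3 FPKM in hy5 and 9.90 ± 2.1 FPKM in WT (SD, n = 3 each). UGT72E1 averaged 31.4 ± 3.1 FPKM in hy5 and 23.0 ± 4.2 FPKM in WT (SD, n = 3 each). Its relatives UGT72E2 and UGT72E3, also named after their values were seen, did not pass (log2 fold changes -0.20 and -0.12). Pinoresinol reductases act on the lignan whose formation DIR6 directs.

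Transcription factors of lignin and secondary walls were mostly low, with 11 of 18 below the filter. Of 7 tested 2 were higher in hy5, where 11.7% of all genes tested were higher. VND7, a master regulator of vessel differentiation, had 1.25, 1.80 and 1.41 FPKM in hy5 4, 5 and 6, against 0.399, 0.517 and 1.14 FPKM in WT 1, 2 and 3 (limma adjusted p = 0.030). VND7 met the filter through the 3 hy5 libraries and WT 3. The VND7 call was lost in 6 of 13 settings (adjusted p up to 0.11), including omission of WT 1, WT 2, hy5 5 or hy5 6. MYB61 averaged 2.17 ± 0.61 FPKM in hy5 and 1.20 ± 0.34 FPKM in WT (SD, n = 3 each, limma adjusted p = 0.047), with overlap, and its call was lost in 8 of 13 settings, including omission of WT 2, WT 3, hy5 4 or hy5 6 (adjusted p up to 0.19). The lignin repressors MYB4, MYB7 and MYB32 did not pass. The Kelch F-box proteins that mark PAL for degradation were both higher where measured. AT1G15670 averaged 21.3 ± 1.5 FPKM in hy5 and 14.4 ± 3.5 FPKM in WT, and its call was at an adjusted p of 0.051 without hy5 6. AT2G44130 averaged 34.3 ± 2.2 FPKM in hy5 and 27.7 ± 2.9 FPKM in WT (SD, n = 3 each), and its call was lost in 9 of 14 settings, including omission of WT 1, WT 2, hy5 4 or hy5 6 (adjusted p up to 0.17).

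Upstream windows were searched for letters that known regulators of these genes bind: the G-box CACGTG, the ACGT core that lies within it, and the AC elements read by lignin MYB factors. The AC elements searched were ACCTACC, a variant spelled ACCAACC and a further variant spelled ACCTAAC. Both strands of the 300 bases before the annotated start were read in the RefSeq TAIR10.1 genome. An ACGT core was found in 22 of 40 windows (55.0%) and in 48.9% of the 26983 windows of all genes. A G-box was found in 1 of 40, that of PAL4, and in 7.08% of all windows. An AC element was found in 7 of 18 enzyme and laccase windows (38.9%), in 2 of 22 dirigent windows (9.09%) and in 7.11% of all windows. Among the 6 ESB1-like genes 4 windows held an ACGT core and none held an AC element. The windows of the 3 enzymes with the smallest p, of CAD5, which moved opposite to ATCAD4, and of ESB1 are shown with these motifs in capitals:
LysoPL2, chr1:19650872-19651171, plus strand: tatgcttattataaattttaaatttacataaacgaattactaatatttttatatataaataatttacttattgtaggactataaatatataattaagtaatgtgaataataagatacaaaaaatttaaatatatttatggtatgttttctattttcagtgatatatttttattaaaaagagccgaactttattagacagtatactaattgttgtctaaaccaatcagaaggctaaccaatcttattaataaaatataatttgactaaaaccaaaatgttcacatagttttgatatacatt
PAL1, chr2:15560756-15561055, minus strand: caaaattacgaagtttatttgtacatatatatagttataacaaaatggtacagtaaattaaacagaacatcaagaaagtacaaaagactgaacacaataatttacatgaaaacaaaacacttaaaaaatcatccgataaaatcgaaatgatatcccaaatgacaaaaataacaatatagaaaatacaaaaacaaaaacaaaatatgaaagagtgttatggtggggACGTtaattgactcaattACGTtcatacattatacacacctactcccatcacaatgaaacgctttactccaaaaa
ATCAD4, chr3:6744077-6744376, plus strand: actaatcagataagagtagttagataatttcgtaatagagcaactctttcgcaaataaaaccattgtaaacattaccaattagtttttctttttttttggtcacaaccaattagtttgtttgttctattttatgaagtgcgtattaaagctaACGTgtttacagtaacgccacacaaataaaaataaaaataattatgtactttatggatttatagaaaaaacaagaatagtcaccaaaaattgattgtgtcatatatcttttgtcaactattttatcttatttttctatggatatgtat
CAD5, chr4:16388941-16389240, minus strand: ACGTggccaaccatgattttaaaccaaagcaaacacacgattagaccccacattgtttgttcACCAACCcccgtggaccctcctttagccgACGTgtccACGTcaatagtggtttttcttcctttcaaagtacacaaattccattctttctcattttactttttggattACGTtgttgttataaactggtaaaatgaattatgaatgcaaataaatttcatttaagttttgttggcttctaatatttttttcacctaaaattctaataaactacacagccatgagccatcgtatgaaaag
ESB1, chr2:12302359-12302658, minus strand: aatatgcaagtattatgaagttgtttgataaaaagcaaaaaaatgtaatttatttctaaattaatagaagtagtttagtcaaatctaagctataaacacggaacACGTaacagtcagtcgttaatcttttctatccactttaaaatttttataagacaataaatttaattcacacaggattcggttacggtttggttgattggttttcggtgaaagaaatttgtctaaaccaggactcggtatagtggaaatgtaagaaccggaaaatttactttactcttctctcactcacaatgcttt
CAD5 holds 4 ACGT cores, 131 to 300 bases before the start, and an AC element ACCAACC at 238 bases. ATCAD4 holds 1 ACGT core at 148 bases and no AC element. PAL1 holds 2 ACGT cores, at 75 and 57 bases, ESB1 holds 1 at 196 bases, and LysoPL2 holds none of the searched motifs. A match is a description of these letters and not a measured binding site.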

How the data were processed

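RNA-seq of seedlings gave 6 tables of FPKM per gene, 3 for hy5-215 and 3 for Col_0, analysed in the form deposited by the authors, with the unit named per the file headers. Tools are listed in the submitters' processing notes without roles: Trimmomatic (0.36), DESeq (1.18.0), HISAT2 (2.2.1.0), Cufflinks, Bowtie2 and TopHat, with TAIR10 as build. The sources used here do not give the annotation, the use of strand or the handling of reads shared between genes. Because FPKM is relative to the library, a few abundant genes can shift the rest. No pair of libraries shared an equal value above 0.

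A pseudocount of 1 was added before taking log2, which shrinks changes of weakly expressed genes. The filter kept genes reaching 1 FPKM in 3 or more libraries. limma 3.58.1 in R 4.3.3 compared the genotypes with a mean trend and robust empirical Bayes, p-values were adjusted by Benjamini-Hochberg over all 17205 genes tested, and 0.05 was the threshold. The fit was tested on simulated data. Fold changes are hy5 over WT. The members and lists were chosen with earlier results of these data known. Members past the threshold and the most abundant member of each step are given in every library, and up to 3 called genes with the smallest p are named per list. Symbols, gene models and sequences come from RefSeq TAIR10.1, matched by locus for all 26984 genes. Upstream windows hold the 300 bases before the annotated start and none of the gene's own transcribed bases. Whether they overlap neighbouring genes was not checked. Coding sequences were aligned with Biopython 1.88 and searched with blastn 2.17.0, in place of the protein comparison planned. The values of 1 endodermis marker, which stays in the counts and sums of its list, are not reported here. Figures were drawn with matplotlib 3.10.9.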

Additional observations from a re-analysis of the deposited data

How the results depend on the processing

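Across 14 alternatives (a pseudocount of 0.1 or 5, filtering at 5 FPKM or not at all, 3 rescalings, plain empirical Bayes, and each library left out), the number of the 35 tested genes past the threshold was 14 to 21, with 12 to 19 higher and 2 to 3 lower. Leaving out single libraries gave 5 to 9 higher enzymes and laccases (5 without hy5 4), 7 to 10 higher dirigent genes, 5 to 6 higher ESB1-like genes and 7 to 8 higher endodermis markers. Over all genes it gave 2028 (without hy5 6) to 4309 calls (without WT 3), with 2201 without hy5 4. The log2 fold change of HCT ranged over these omissions from -0.10 to 0.10, the sign turning without WT 3. For the genes that the naming rule selects, 559 single-gene values kept direction and side of the threshold, 66 lost the call, 1 gained it (AT1G55210) and 1 reversed, and the cause was not tested. Outside that rule, PAL4, AT5G42500 and AT1G07730 gained a call without WT 3 and AT4G11210 without WT 2. Rescaling moved the median of all genes by less than 0.1. No paired analysis was possible because the genotypes share no replicate number. Fragment counts are not known, so counting error of genes near 1 FPKM, such as VND7, MYB61 and AT1G07730, cannot be given.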
